A study of Caenorhabditis elegans with 30 samples.

Results

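The experiment examined what happened in *C. elegans* when the receptor gene *old-1* was expressed in the epidermis from the *dpy-7* promoter. Its members were chosen by their sample titles and number 6 of the 30 libraries of the series, 3 from animals with *dpy-7p::old-1* and 3 from hygromycin control animals. RNA came from whole animals labelled L4, the last larval stage, grown from bleached embryos on *E. coli* OP50 at 20°C, and was collected in triplicate. The *dpy-7p::old-1* animals carried the array icbEX359. It is made of pFD20 (dpy-7::old-1::unc-54) together with the plasmids PIP1303F, written rps-0::hgb:unc-54, and also pBJ36, and in it *old-1* is read from the *dpy-7* promoter and followed by *unc-54* sequence. The control animals were N2, the wild-type strain, with the array icbEx360, made of PIP1303F and pBJ36 alone, so both groups held the hygromycin resistance plasmid. Each group is 1 strain with 1 array, and arrays outside the chromosomes can be lost from some cells and passed on unevenly, so differences between the arrays and the effect of the receptor cannot be told apart. The p-values below measure the spread between these collections. Other experiments of the series, each with controls of its own, served for comparison. In the first, N2 animals given extract of the oomycete *M. humicola* 4 h before collection were set against untreated N2, 3 libraries each. In the second, *old-1p::old-1* animals, which carry the array icbEx308, made of old-1p::OLD-1::GFP with the marker bus-1p::GFP and with pBJ36, and the insertion icbIs4[pGO4,pCMH1195]IV, and which express the gene from its own promoter, were set against non-transgenic N2(icbIs5) animals, 3 libraries each.

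Receptor tyrosine kinases span the cell membrane and phosphorylate proteins inside the cell once they are activated, and a raised level of the receptor can be enough to activate them. OLD-1 and its partner FLOR-1, which lacks features needed for kinase activity, belong to the nematode KIN-16 family and are needed in the epidermis for the oomycete recognition response (ORR). In this response animals that sense an oomycete switch on chitinase-like (*chil*) genes, *pals* genes and other genes before any infection. The *dpy-7* promoter is active in the epidermis, the layer under the cuticle through which oomycetes enter.

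Total *old-1* RNA was higher in the *dpy-7p::old-1* animals. *old-1* (chromosome II, 9866464 to 9868747, minus strand, WBcel235 annotation) had 49.4, 57.3 and 76.1 CPM (counts scaled to library size) in the *dpy-7p::old-1* libraries, against 1.31, 1.1 and 1.47 CPM in the control libraries. The groups did not overlap, and *dpy-7p::old-1* replicate 3 held the most *old-1*. The log2 fold change was 5.54 (SE 0.21, edgeR adjusted p = 5.82e-07). The reads do not separate transgene from chromosome, so the value covers both copies. *dpy-7* itself, a cuticle collagen gene whose promoter the transgene borrows, had 18.5, 12.7 and 33.5 CPM in *dpy-7p::old-1* and 23.8, 25.2 and 21 CPM in control libraries. It was not called (log2 fold change -0.11, SE 0.28, adjusted p = 0.759), and its *dpy-7p::old-1* libraries spread more widely than its controls. *unc-54*, the myosin heavy chain gene that lends its end to the transgenes of both groups, had 5555, 4331 and 5170 CPM in *dpy-7p::old-1* and 7621, 9521 and 8152 CPM in control libraries.

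Across all genes the difference between the strains was broad. Of 16141 genes tested, 4019 were called higher and 3377 lower in *dpy-7p::old-1*, which is 45.8% in all, 24.9% higher and 20.9% lower. A gene was called at p under 0.01 and Benjamini-Hochberg adjusted p under 0.1, the study's thresholds, in edgeR's quasi-likelihood test. Counts of members below are read against these shares. Germline genes were higher, and several lists of somatic markers held more falls than rises. Of 18 oocyte and embryo genes, 16 rose, and their mean log2 CPM lay between 8.07 and 8.33 in the *dpy-7p::old-1* libraries, against 6.36 to 6.67 in the controls. Of 29 major sperm protein genes 28 rose, and of 18 germline genes 16. Of 12 body wall muscle markers 11 fell, and their mean log2 CPM lay between 9.15 and 9.31 in the *dpy-7p::old-1* libraries, against 9.96 to 10.15 in the controls. Of the pharynx, intestine and neuron markers 8 of 10, 9 of 13 and 6 of 14 fell, and of the epidermis markers 5 of 18. In bulk RNA, fewer cells of a type and less RNA per cell cannot be told apart. Yolk genes and the adult collagen gene *col-19* are not expected in larvae, yet *col-19* had 1800, 1629 and 1541 CPM in *dpy-7p::old-1* and 1806, 2856 and 2359 CPM in control libraries labelled L4. Libraries were instead scaled on 49 muscle, pharynx, intestine and neuron markers, a choice made after these lists were seen. The median log2 fold change of all genes then moved to 0.56, against -0.09 before, and 95.1% of the 7629 calls were higher. With this scaling 45% of all genes tested were called higher and 2.3% lower. Values scaled this way are called somatic-scaled below and are given where they change the call or the sign of a named gene or a list. *col-19* and *unc-54* stood at 0.16 and -0.10 on that scale, not called, and *dpy-7* at 0.52, not called. Muscle, pharynx, intestine and neuron markers lie near 0 as a set on that scale by construction. Beyond this rescaling, the part of the shift in the results below was not tested.

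The 50 ORR genes all rose. They are the genes the study found raised by *M. humicola* extract in its N2 libraries and in published data, so their response to extract was set by that choice, while the *dpy-7p::old-1* libraries had no part in it. All 50 were called higher in *dpy-7p::old-1*, against 24.9% of all genes tested, and in all 50 the 3 *dpy-7p::old-1* libraries lay above the 3 control libraries, which held for 31.8% of all genes. Their median log2 fold change was 4.85, from 0.78 for *kin-15* to 11.07 for *Y71H2AR.2*, and the median of all genes was -0.09. The somatic-scaled median was 5.48, again with 50 of 50 higher. Summed over the 50 genes, the *dpy-7p::old-1* libraries held 896, 867 and 1222 CPM and the control libraries 77.1, 67.4 and 84.3 CPM. In control animals most of these genes were close to silent, as 39 of 50 averaged under 1 CPM, while 1 of 50, *Y6E2A.7*, did so in *dpy-7p::old-1*. *dpy-7p::old-1* replicate 3 was the highest for 42 of the 50 genes, replicate 2 for 7 and replicate 1 for 1. The share over all genes was not computed, and replicate 3 differed in other lists too. Summed CPM in replicates 1, 2 and 3 were 817, 702 and 1180 for molting genes and 7229, 6965 and 5947 for oocyte and embryo genes. Whether the ORR genes followed the level of *old-1* across the 3 libraries was not tested. Without *dpy-7p::old-1* replicate 2 the call of *pals-37* was lost (log2 fold change 1.1, adjusted p = 0.0292) and 49 remained.

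**Figure D1:**
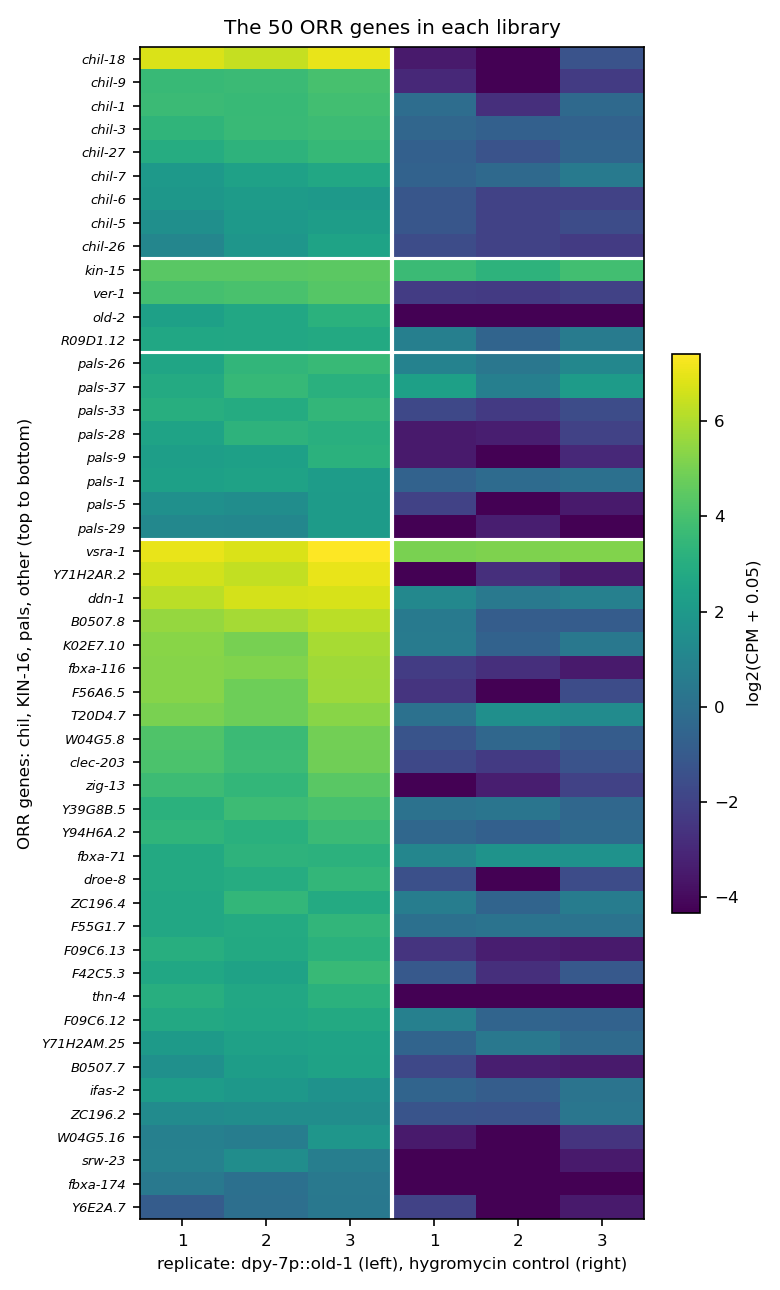
Level of each of the 50 ORR genes (rows, ordered chil, KIN-16, pals and other) in the 3 dpy-7p::old-1 libraries (left) and the 3 hygromycin control libraries (right), as the log2 of CPM plus 0.05. All 50 rows are brighter on the left, and 39 of 50 genes average under 1 CPM on the right.

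Receptors of the KIN-16 family other than *old-1* are themselves part of the response. Of 8 family members tested, 6 rose, 1 fell and 1 was not called, *old-1* included. *old-2*, the closest neighbour of *old-1* within the family along the chromosome, had 5.02, 6.55 and 8.97 CPM in *dpy-7p::old-1* libraries, against 0 in each control library. With 513 counts against 0, it was at least 159-fold higher, taking a floor of 3 counts over the control group. *ver-1*, a receptor related to those for vascular growth factors, had 15.4, 16.6 and 19.9 CPM in *dpy-7p::old-1* and 0.159, 0.149 and 0.198 CPM in control libraries. Its groups were far apart, with a log2 fold change of 6.62 (SE 0.24, adjusted p = 5.55e-07). *R09D1.12* rose less, with 6.3, 6.43 and 6.91 CPM in *dpy-7p::old-1* and 1.63, 0.647 and 1.43 CPM in control libraries (log2 fold change 2.38, SE 0.28, adjusted p = 0.000129). Its neighbour *R09D1.13*, which is not an ORR gene, had 39 counts in *dpy-7p::old-1* and 0 in control libraries, at least 12.1-fold higher.

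The smallest change of any ORR gene was that of *kin-15*, a receptor kinase expressed in the epidermis. It had 21.1, 21.1 and 21.9 CPM in *dpy-7p::old-1* and 12.8, 9.61 and 14.7 CPM in control libraries (log2 fold change 0.78, SE 0.16, adjusted p = 0.00229). The groups did not overlap, but the difference was under 2-fold. *kin-16*, the gene next to it that gives the family its name, moved the other way, with 11.4, 13.4 and 9.80 CPM in *dpy-7p::old-1* and 18.8, 18.7 and 26.9 CPM in control libraries (log2 fold change -0.90, SE 0.18, adjusted p = 0.00229). Somatic-scaled, the fall of *kin-16* was -0.24 and not called. *flor-1*, the pseudokinase partner, had 15.6, 15.1 and 21.3 CPM in *dpy-7p::old-1* and 18.8, 14.2 and 13.8 CPM in control libraries, so the groups overlapped (log2 fold change 0.14, SE 0.18, adjusted p = 0.512). Somatic-scaled, *flor-1* was higher by 0.78 and called.

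The *chil* genes encode chitinase-like proteins, and *chil-27* is the gene whose reporter marks the response. All 9 ORR *chil* genes rose, by a median of 4.18 on the log2 scale. *chil-18* changed most, with 107, 84.2 and 131 CPM in *dpy-7p::old-1* and 0.0398, 0 and 0.357 CPM in control libraries (log2 fold change 9.52, SE 0.42, adjusted p = 1.56e-06). Per transcript length it was also the most abundant *chil* gene of the response, at a mean of 82.5 TPM (counts scaled to transcript length and library size) in *dpy-7p::old-1* and 0.0985 TPM in control libraries. *chil-27* was far less abundant, with 7.69, 9.49 and 11.6 CPM in *dpy-7p::old-1* and 0.557, 0.349 and 0.634 CPM in control libraries (log2 fold change 4.18, SE 0.27, adjusted p = 7.26e-06), or a mean of 6.78 against 0.346 TPM. *chil-9* was nearly silent in controls, with 12, 12.7 and 16.2 CPM in *dpy-7p::old-1* and 0.0796, 0 and 0.159 CPM in control libraries (log2 fold change 7.24, SE 0.39, adjusted p = 4.06e-06). *chil-3* had 10.2, 12.4 and 13.2 CPM in *dpy-7p::old-1* and 0.677, 0.548 and 0.595 CPM in control libraries (log2 fold change 4.28, SE 0.21, adjusted p = 3.41e-06). *chil-1*, *chil-26*, *chil-6*, *chil-5* and *chil-7* rose by 4.43, 4.09, 3.85, 3.67 and 2.53 on the log2 scale. In none of the 9 genes did a control library reach a *dpy-7p::old-1* library.

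Outside the ORR, most *chil* genes did not follow. Of 14 tested, 1 rose, 2 fell and 11 were not called, and their median log2 fold change was -0.18. The riser was *chil-4*, with 4.01, 3.38 and 4.57 CPM in *dpy-7p::old-1* and 0.398, 0.249 and 0.476 CPM in control libraries (log2 fold change 3.37, SE 0.30, adjusted p = 2.73e-05). *chil-13* and *chil-22* fell by 0.69 and 1.24 on the log2 scale, and neither was called when somatic-scaled. *chil-10*, at 15.3, 20.6 and 17.7 CPM in *dpy-7p::old-1* and 21.8, 31.2 and 23 CPM in control libraries the most highly counted of those not called, had an adjusted p of 0.0272 but an unadjusted p of 0.0131, above the threshold, and its somatic-scaled value was 0.16. Somatic-scaled, the median of the 14 genes turned positive, at 0.46, with 2 called higher and 0 lower, where the median of all genes was 0.56.

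Most *chil* genes lie in 2 groups on chromosome II, and the groups differed in how many members rose. The group around *old-1* spans positions 9843258 to 9874608 and holds 9 *chil* genes, of which 7 rose (*chil-9*, *chil-4*, *chil-6*, *chil-5*, *chil-3*, *chil-1* and *chil-7*) while *chil-8* and *chil-2*, the last of the row, were not called. All 4 other tested genes inside it rose too, namely *old-2*, *old-1*, *ZK938.10* and *C08H9.18*. *ZK938.10* had 1.72, 0.914 and 1.59 CPM in *dpy-7p::old-1* and 0.0796, 0.0498 and 0.0397 CPM in control libraries (log2 fold change 4.52, SE 0.54, adjusted p = 0.00014), and it was not called with extract in N2 (1.43). *C08H9.18* rose by 2.70 on the log2 scale, at under 1 CPM in every library. The group without *old-1* spans positions 9436624 to 9479696 and holds 12 *chil* genes, of which 9 were tested. *chil-18*, *chil-26* and *chil-27*, the only tested *chil* genes of this group on the plus strand, rose. *chil-13* and *chil-22* fell, and *chil-19*, *chil-21*, *chil-23* and *chil-25* were not called, and *chil-19* turned sign with the scaling (-0.15, somatic-scaled 0.47). Of the 4 other tested genes there, *R09D1.12* and *R09D1.13* rose while *T19H5.6* and *T19H5.7* (-0.42, somatic-scaled 0.24) were not called. The annotated ends of *chil-1* (9862309 to 9866478) and *old-1* overlap by a few bases on the same strand, and reads of the transgene over that stretch cannot be told apart from reads of *chil-1*.

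**Figure D2:**
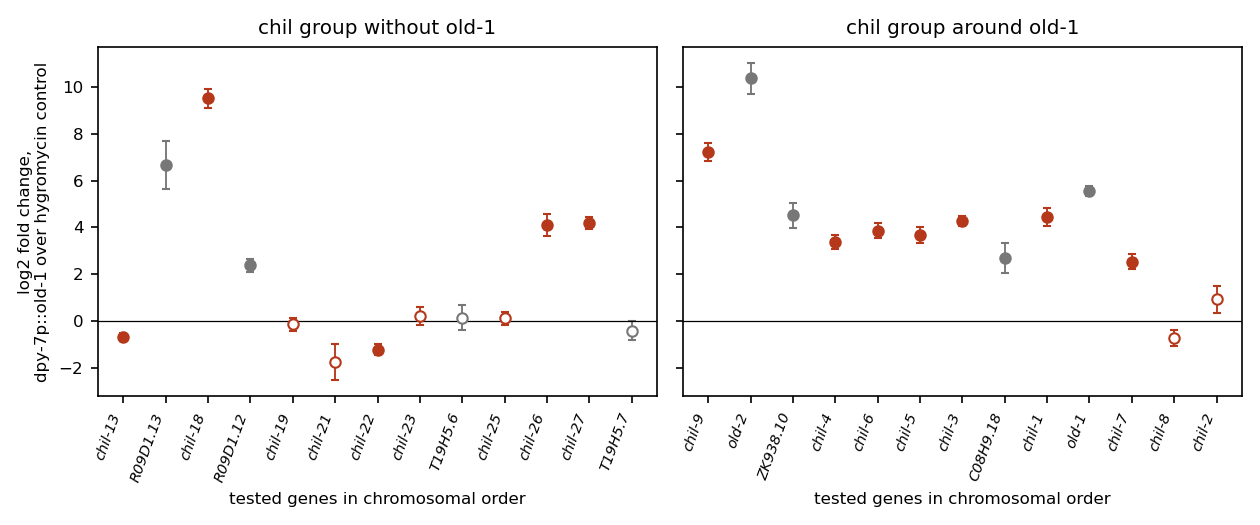
Log2 fold change, dpy-7p::old-1 over hygromycin control, of each tested gene of the chil group without old-1 (left) and of the group around old-1 (right), in chromosomal order with SE bars. On the right 7 of 9 chil genes and 4 of 4 other genes rose, and on the left 3 of 9 tested chil genes and 2 of 4 other genes.

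The *pals* genes, named for a protein signature and known from the response to intracellular pathogens, were a second large family. All 8 ORR *pals* genes rose, by a median of 5.23 on the log2 scale. *pals-28* had 5.51, 9.53 and 8.55 CPM in *dpy-7p::old-1* and 0.0398, 0.0498 and 0.198 CPM in control libraries (log2 fold change 6.24, SE 0.44, adjusted p = 9.71e-06). *pals-9* had 472 counts against 3, a ratio of 146 with a 95% counting interval of 49.8 to 712, and *pals-29* 214 counts against 1, a ratio of 199 with an interval of 35.3 to 7898. Such intervals and floors cover counting error only. *pals-33*, *pals-5*, *pals-1*, *pals-26* and *pals-37* rose by 5.26, 5.2, 2.65, 2.46 and 1.31 on the log2 scale.

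Beyond the ORR, 26 *pals* genes were tested, of which 15 rose and 5 fell. Their median log2 fold change was 1.68. *pals-4* had 11.4, 18.5 and 20.9 CPM in *dpy-7p::old-1* and 0.478, 0.747 and 1.03 CPM in control libraries (log2 fold change 4.48, SE 0.32, adjusted p = 1.04e-05). *pals-11* and *pals-8* were not counted in any control library and reached 259 and 138 counts in *dpy-7p::old-1*, at least 80.3-fold and 42.8-fold higher. The genes that fell were *pals-23*, *pals-24*, *pals-17*, *pals-18* and *pals-19*. *pals-23* stood out among them, with 8.51, 8.78 and 10.6 CPM in *dpy-7p::old-1* and 28, 29.3 and 31 CPM in control libraries (log2 fold change -1.66, SE 0.13, adjusted p = 1.46e-05), and its fall was still called when somatic-scaled, at -1.01. The calls of *pals-17*, *pals-18* and *pals-19* were lost on that scale, at -0.03, -0.05 and -0.11, and 2 of the 26 genes were lower and 15 higher. *pals-22* and *pals-25*, a pair that sets the level of the intracellular pathogen response, were not called, at -0.28 and -0.15 (somatic-scaled 0.37 and 0.50, not called).

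The other 29 ORR genes all rose, by a median of 5.19 on the log2 scale. *Y71H2AR.2* had the largest change of the 50, with 97.9, 80.3 and 131 CPM in *dpy-7p::old-1* and 0, 0.0996 and 0.0397 CPM in control libraries. With 7754 counts against 3, the ratio was 2404 with a 95% counting interval of 822 to 11660. *F56A6.5* had 38.5, 28.3 and 51.6 CPM in *dpy-7p::old-1* and 0.119, 0 and 0.278 CPM in control libraries (log2 fold change 8.07, SE 0.43, adjusted p = 4.06e-06). *ddn-1*, already detectable in controls, had 73.9, 101 and 105 CPM in *dpy-7p::old-1* and 2.19, 1.29 and 1.67 CPM in control libraries (log2 fold change 5.74, SE 0.21, adjusted p = 5.55e-07). *B0507.8* had 46.9, 57.8 and 74.3 CPM in *dpy-7p::old-1* and 1.35, 0.498 and 0.476 CPM in control libraries (log2 fold change 6.23, SE 0.33, adjusted p = 3.65e-06). Per transcript length the most abundant of the 50 was *F09C6.13*, at a mean of 197 TPM in *dpy-7p::old-1* and 1.65 TPM in control libraries. Its CPM were 8.25, 6.99 and 9.01 in *dpy-7p::old-1* and 0.119, 0.0498 and 0.0397 in control libraries.

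Several of these genes belong to families with a known function. *fbxa-116*, an F-box gene of the kind whose proteins pick substrates for ubiquitin ligases, had 39, 36 and 53.9 CPM in *dpy-7p::old-1* and 0.159, 0.0996 and 0.0397 CPM in control libraries (log2 fold change 8.68, SE 0.31, adjusted p = 5.55e-07). The related *fbxa-174* had 89 counts against 0, at least 27.6-fold higher, and *fbxa-71* rose by 1.62 on the log2 scale. *thn-4*, which encodes a thaumatin-like protein, had 8.10, 6.55 and 8.92 CPM in *dpy-7p::old-1* and 0 in each control library, at least 184-fold higher with 594 counts against 0. *clec-203*, a C-type lectin gene, *zig-13*, which encodes an immunoglobulin domain protein, and *droe-8* rose by 6.27, 7.39 and 5.3 on the log2 scale. *srw-23*, a gene of a chemoreceptor family, had 152 counts against 1, a ratio of 141 with an interval of 25 to 5620. *vsra-1*, an Argonaute gene whose product works with small RNAs, was the ORR gene with the most reads in controls, with 130, 108 and 171 CPM in *dpy-7p::old-1* and 32.8, 34.9 and 36.5 CPM in control libraries (log2 fold change 1.97, SE 0.16, adjusted p = 1.86e-05).

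The ORR genes were next set against the response to extract itself, to see whether *old-1* in the epidermis moved them as far. Extract in N2 raised all 50, by the rule that chose them. The median log2 fold change was 4.85 in *dpy-7p::old-1* and 6.81 with extract. In a test of the difference between both changes, over 12 libraries that share no control, 26 of 50 changed less in *dpy-7p::old-1* than with extract, 0 changed more and 24 were not called. At an unadjusted p under 0.05 there was 1 that changed more, and limma called 3 (DESeq2 0). Of all 16782 genes in this test 40.8% were called, 21% as higher and 19.8% as lower. Since the 50 were picked for a high extract response, a smaller change here is partly set by the choice. By family the smaller change was called for 6 of 8 *pals*, 3 of 9 *chil*, 1 of 4 KIN-16 (*R09D1.12*) and 16 of 29 other genes. *chil-27* showed one of the widest gaps, with log2 fold changes of 4.18 in *dpy-7p::old-1* and 10.32 with extract (difference -6.21, adjusted p = 0.000106). Its control levels differed too, with means of 0.514 CPM in hygromycin control and 0.0356 CPM in untreated N2. The raised means were 9.58 CPM in *dpy-7p::old-1* and 42.2 CPM with extract. *pals-28* changed by 6.24 in *dpy-7p::old-1* and 12.81 with extract, and *pals-5* by 5.2 and 10.87, both called.

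For other *chil* genes no such difference was called. *chil-9* rose by 7.24 on the log2 scale in *dpy-7p::old-1* and 7.10 with extract, *chil-18* by 9.52 and 9.94, *chil-5* by 3.67 and 3.52 and *chil-1* by 4.43 and 4.83. The differences were 0.08, -0.51 (SE 0.99), 0.07 (SE 0.44) and -0.48 (SE 0.79) on the log2 scale. The SE of the *chil-9* difference is not reliable, as the value is near 0 and its controls held few counts. Its changes had an SE of 0.39 in *dpy-7p::old-1* and 0.77 with extract, so the difference stayed uncertain. *chil-6* changed by 3.85 in *dpy-7p::old-1* and 2.70 with extract (difference 1.06, SE 0.46, adjusted p = 0.0731), also not called. In contrast, *chil-26* and *chil-7* changed less in *dpy-7p::old-1*, by 4.09 against 8.14 and by 2.53 against 6.26, both called. Both groups of *chil* genes on chromosome II thus held members whose change was smaller than with extract and members for which no difference was called. Levels of stage-dependent genes also differed inside the extract experiment, where the median log2 fold change of yolk genes was -6.92 and that of major sperm protein genes -3.01 between extract and untreated N2, and untreated N2 replicate A stood apart in these genes. Without that library 25 of 50 ORR genes changed less, and over the libraries left out in turn the count ran from 22 to 28. The part of these gene levels in the results was not tested.

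Against *old-1* under its own promoter, the change was larger for some of the ORR genes. In *old-1p::old-1* animals 5 of 44 ORR genes tested were called higher (*Y71H2AR.2*, *F56A6.5*, *ddn-1*, *chil-1* and *vsra-1*), against 0.0921% of all genes higher and 0.0246% lower. The median log2 fold change of the 44 was 3.24. Only 19 of 16285 genes were called in that experiment, so a missing call there does not show a missing change. The study, testing with sleuth, reported most of the 50 ORR genes as raised in it. The test of the difference called 11 of 50 ORR genes as changing more in *dpy-7p::old-1* and 0 as changing less (2 at an unadjusted p under 0.05, 0 by DESeq2 and limma), where 6.04% of 16890 genes were called, 2.84% as higher and 3.20% as lower. The 11 included 4 *chil* genes, *chil-3*, *chil-5*, *chil-6* and *chil-9*, and 1 *pals* gene, *pals-9*. *chil-5* had a log2 fold change of 3.67 in *dpy-7p::old-1* and -0.06 in *old-1p::old-1* (difference 3.88, adjusted p = 0.00616). *chil-27* and *chil-26* had values in the other direction, 4.18 and 4.09 in *dpy-7p::old-1* against 6.84 and 6.59 in *old-1p::old-1*, not called different. Those larger folds stood on near-silent controls. *chil-27* averaged 3.52 CPM in *old-1p::old-1* and 0.0270 CPM in its control, and *chil-26* 1.69 and 0.0135 CPM. *old-1* itself was higher by 5.54 in *dpy-7p::old-1* and 6.11 in *old-1p::old-1* (difference -0.41, adjusted p = 0.632). The count of 11 was 2 with a replicate block, 17 under DESeq2 and 25 under limma, and it depended on single libraries, being 6 without *dpy-7p::old-1* replicate 1 and 7 without hygromycin control replicate 3.

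**Figure D3:**
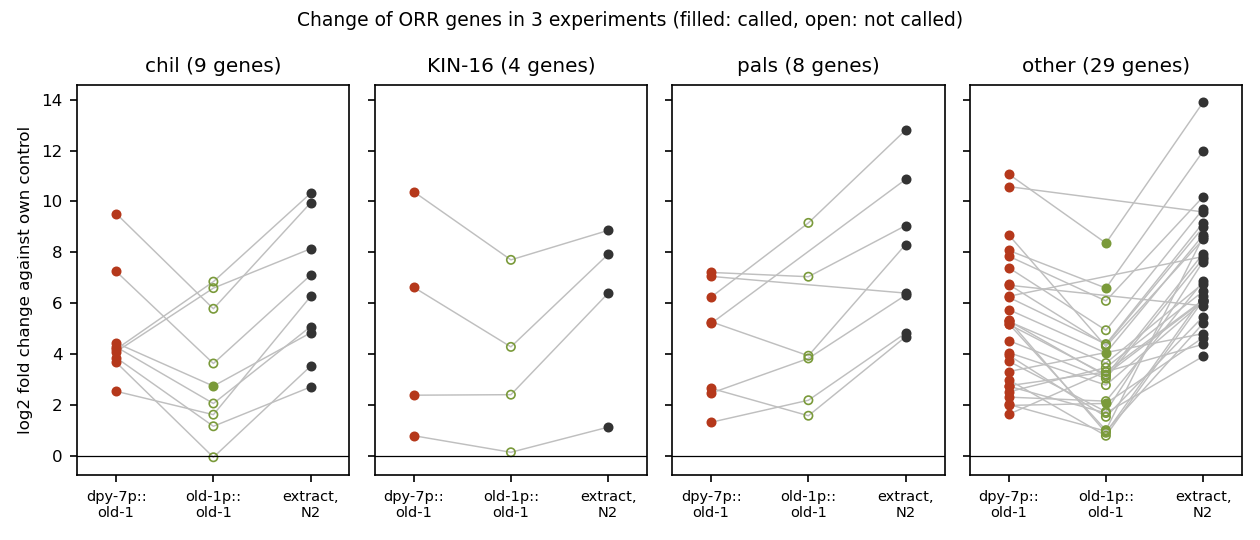
Log2 fold change of the ORR genes against the controls of each experiment, one line per gene, in 4 panels by family, for dpy-7p::old-1, old-1p::old-1 and extract in N2 (filled points called, open points not called). The points of dpy-7p::old-1 are all filled, with a median of 4.85, and those of extract have a median of 6.81.

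The response also reached genes outside the 50. Among called genes outside the ORR with a mean of at least 1 CPM in the higher group, the largest rises were those of *rabr-4* (723 counts against 0, at least 224-fold), *fbxa-28*, an F-box gene (605 against 0, at least 188-fold), and *ifas-1*. *ifas-1* had 59.7, 51.8 and 71.3 CPM in *dpy-7p::old-1* and 0.0796, 0.199 and 0 CPM in control libraries (log2 fold change 9.39, SE 0.35, adjusted p = 5.55e-07), and its change was 10.20 with extract and 9.56 in *old-1p::old-1*, called in each. Next came *pals-11*, *C32B5.13* (182 against 0, at least 56.4-fold), *F57G4.11* (601 against 1, ratio 559, interval 99.9 to 22115), *pals-8*, *rac-2*, a gene of a small GTPase of the Rac family (498 against 1, ratio 463, interval 82.8 to 18331), *F15H10.12* (84 against 0, at least 26-fold) and *Y105C5A.1270* (426 against 2, ratio 198, interval 54.5 to 1641). All 10 were also called higher with extract in N2, where 8.13% of all genes tested were called higher and 6.28% lower.

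The same held for the strongly raised genes more widely, at a cut of 4 on the log2 scale that was chosen after the values were seen. Only genes tested in both experiments were counted. A gene silent in the controls of an experiment was tested there only if the other libraries held enough reads. The shares in this paragraph are therefore partly set by that filter. Of 30 genes outside the ORR that rose by at least 4 in *dpy-7p::old-1*, 27 (90%) were called higher with extract. The exceptions were *old-1*, *ZK938.10* and *ces-2*, a bZIP transcription factor gene at under 1 CPM. In the other direction, of 75 genes outside the ORR raised by at least 4 with extract, 62 (82.7%) rose in *dpy-7p::old-1* while 3 fell and 10 were not called, and the median log2 fold change of the 75 there was 2.75. The 3 that fell were *dod-3*, *M02E1.4* and *thn-2*, the last 2 of which were not called when somatic-scaled. Among the 10 were genes of digestive enzymes and immune effectors such as *ilys-3*, an invertebrate lysozyme gene, which changed by 0.17 in *dpy-7p::old-1* and 4.75 with extract, and *lact-6*, by -1.68 and 7.52. At a cut of 2 the shares were lower, with 64 of 146 risers in *dpy-7p::old-1* (43.8%) called higher with extract and 51.7% of the risers with extract called higher in *dpy-7p::old-1*. Genes with smaller extract responses were not shared in this way. Of all 1190 genes outside the ORR called higher with extract, 16.6% rose in *dpy-7p::old-1* and 33.5% fell, where 24.7% and 21.9% of all 15280 genes tested in both did so.

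The thaumatin-like genes gave a split of the same kind. *thn-1* had 33.9, 26.4 and 35.7 CPM in *dpy-7p::old-1* and 1.04, 1.64 and 1.27 CPM in control libraries (log2 fold change 4.61, SE 0.20, adjusted p = 1.56e-06), and *thn-4* rose as given above. *thn-2* had 30.7, 35.2 and 32.8 CPM in *dpy-7p::old-1* and 46.7, 61.4 and 50.3 CPM in control libraries (log2 fold change -0.68, SE 0.12, adjusted p = 0.00135), although it was called higher with extract (4.15) and in *old-1p::old-1* (2.02). Both differences were called, at -4.92 and -2.58. Somatic-scaled, *thn-2* stood at -0.03 and was not called.

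The remainder of the intracellular pathogen response, a program that viruses and microsporidia switch on in the intestine, did not move with the *pals* genes. Of 10 such genes tested outside the *pals* family, 1 rose and 9 were not called, and their median log2 fold change was -0.05. With extract 9 of the 10 were called higher (median 1.38), and 8 of 11 tested for the difference changed less in *dpy-7p::old-1* than with extract. The riser was *eol-1*, whose product resembles a nuclease that removes faulty RNA ends, with 4.69, 2.66 and 9.18 CPM in *dpy-7p::old-1* and 0.358, 0.897 and 0.674 CPM in control libraries (log2 fold change 3.11, SE 0.49, adjusted p = 0.000649). *cul-6*, the cullin scaffold of a ubiquitin ligase of this response, had 12, 15.6 and 13.9 CPM in *dpy-7p::old-1* and 13.8, 13 and 17.1 CPM in control libraries, with overlapping groups and a log2 fold change of -0.09 (adjusted p = 0.661), where extract gave 1.29. Its partners *skr-3*, *skr-4*, *skr-5* and *rcs-1* had log2 fold changes of -0.02, 0.22, -0.26 and -0.08, not called. Somatic-scaled, *cul-6*, *skr-3*, *skr-4* and *rcs-1* were called higher, at 0.57, 0.62, 0.86 and 0.55, and *skr-5* was not (0.38). *zip-1*, a transcription factor gene that acts in this response, had 32, 38.6 and 45.7 CPM in *dpy-7p::old-1* and 21.6, 22.7 and 29.7 CPM in control libraries (log2 fold change 0.65, SE 0.16, adjusted p = 0.00753), a smaller change than the 2.27 with extract. Somatic-scaled, 6 of the 10 genes were called higher, with a median of 0.59, close to the median of all genes on that scale.

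Epidermal antimicrobial peptides, which the epidermis makes upon fungal infection or wounding, were lower. Of 14 tested, 9 fell and 0 rose, where 20.9% of all genes fell, and 0 were higher at an unadjusted p under 0.05 or by DESeq2 or limma. Their median log2 fold change was -1.15. Somatic-scaled, 6 of 14 fell, with a median of -0.50. *nlp-30* had 2.70, 2.82 and 3.48 CPM in *dpy-7p::old-1* and 18, 13.8 and 14.8 CPM in control libraries (log2 fold change -2.37, SE 0.18, adjusted p = 1.2e-05). *nlp-24* had 124, 123 and 124 CPM in *dpy-7p::old-1* and 296, 396 and 324 CPM in control libraries (log2 fold change -1.45, SE 0.13, adjusted p = 2.73e-05). *cnc-4*, of the caenacin group, had 3.71, 4.37 and 5.36 CPM in *dpy-7p::old-1* and 17.1, 27.4 and 18.4 CPM in control libraries (log2 fold change -2.22, SE 0.22, adjusted p = 4.56e-05). *nlp-25* fell by 2.47 on the log2 scale, and these 4 genes were also called lower when somatic-scaled. *nlp-29*, *nlp-31*, *nlp-33*, *nlp-34* and *cnc-8* fell by 1.35, 1.18, 1.12, 1.40 and 0.91, and of these *nlp-29*, *nlp-34* and *cnc-8* were not called when somatic-scaled. The change was more negative than with extract for 8 of 16 tested for the difference and more negative than in *old-1p::old-1* for 5 of 17. Of 25 genes of epidermal immune signalling 14 fell and 0 rose, and their median was -0.50. At an unadjusted p under 0.05, 0 were higher in edgeR and DESeq2 and 1 in limma. Somatic-scaled, 7 rose and 1 fell and the median was 0.14, where 45% of all genes rose, 2.3% fell and their median was 0.56. The list median thus changed sign with the scaling and lay below that of all genes on both scales.

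**Figure D4:**
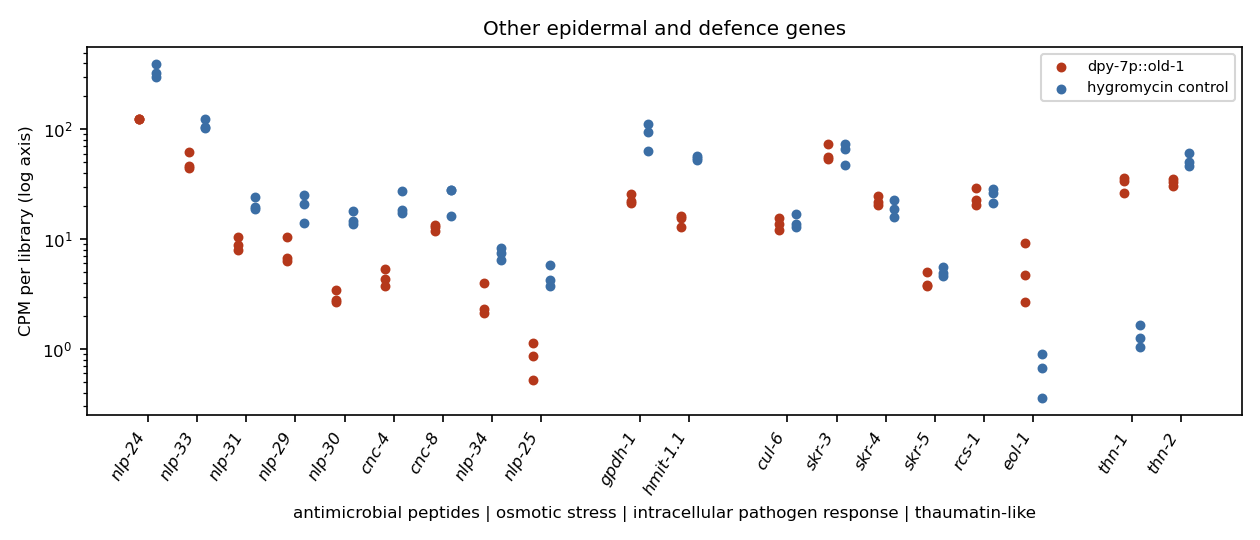
CPM per library (log axis) of antimicrobial peptide, osmotic stress, intracellular pathogen response and thaumatin-like genes in dpy-7p::old-1 (left of each pair) and hygromycin control (right). nlp-30 lies at 2.70 to 3.48 CPM in dpy-7p::old-1 and 13.8 to 18 CPM in control, while cul-6 overlaps between the groups.

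Osmotic stress genes, which let cells build up glycerol and other solutes, were lower as well. Of 15 tested, 9 fell and 0 rose, and 0 were higher at an unadjusted p under 0.05 or by DESeq2 or limma. Their median log2 fold change was -0.82. *hmit-1.1*, a myo-inositol transporter gene, had 15.6, 16.4 and 13 CPM in *dpy-7p::old-1* and 56.5, 53 and 55.1 CPM in control libraries (log2 fold change -1.87, SE 0.12, adjusted p = 5.99e-06). *gpdh-1*, which encodes the glycerol-making enzyme glycerol-3-phosphate dehydrogenase, had 25.6, 21.4 and 22 CPM in *dpy-7p::old-1* and 63.1, 94.4 and 112 CPM in control libraries (log2 fold change -1.96, SE 0.19, adjusted p = 4.6e-05). The groups were well apart in both genes, and both were called when somatic-scaled, at -1.22 and -1.31. *fmo-4* and *hmit-1.3* fell by 0.82 and 0.94, and neither was called when somatic-scaled. On that scale the list had a median of -0.18, with 3 higher and 2 lower. The change was more negative than with extract for 10 of 15 genes and more negative than in *old-1p::old-1* for 3.

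Many genes of cuticle collagens fell. Of 135 *col* collagen genes tested 77 fell and 1 rose, and their median log2 fold change was -0.96. *col-12*, one of the epidermis markers, had 835, 484 and 896 CPM in *dpy-7p::old-1* and 2005, 2149 and 1953 CPM in control libraries (log2 fold change -1.46, SE 0.22, adjusted p = 0.000486). Somatic-scaled, 38 of 135 fell and 8 rose (median -0.32), and *col-12* stayed called lower. The 6 furrow collagen genes tested, to which *dpy-7* belongs, gave 0 calls by edgeR and 0 by DESeq2, with 0 at an unadjusted p under 0.05. Their median was -0.07, which turned to 0.57 when somatic-scaled. Their summed CPM were 86.5, 56.7 and 168.5 in *dpy-7p::old-1* and 112, 121 and 101 in control libraries. With so wide a spread in *dpy-7p::old-1*, a missing call does not show a missing change. Of the 18 epidermis markers 5 fell and 1 rose, and their median was -0.45, which turned to 0.21 when somatic-scaled. All genes had medians of -0.09 and 0.56 on these scales. The riser was *lin-26*, which encodes a transcription factor needed for epidermal identity, with 88.0, 79.4 and 78.6 CPM in *dpy-7p::old-1* and 43.2, 33.8 and 35.5 CPM in control libraries (log2 fold change 1.13, SE 0.12, adjusted p = 6.45e-05).

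The largest falls outside the ORR included 2 hedgehog-related genes. *clec-247*, a C-type lectin gene, had 0, 0.119 and 0.209 CPM in *dpy-7p::old-1* and 5.18, 4.73 and 5.35 CPM in control libraries (log2 fold change -5.52, SE 0.46, adjusted p = 2.11e-05). *grl-27*, a hedgehog-related gene, had 1.5, 0.556 and 1.55 CPM in *dpy-7p::old-1* and 21.5, 15.3 and 14.7 CPM in control libraries (log2 fold change -3.83, SE 0.32, adjusted p = 1.96e-05). The others of the 10 largest falls were *Y51A2A.4* (-4.57), *T09F3.4* (-3.51), *K02E2.8* (-3.44), *F16G10.9* (-3.33), the hedgehog-related gene *grd-11* (-3.25), *C10G8.3* (-3.17), *BE0003N10.6* (-3.10) and *srh-206*, of a chemoreceptor family (-3.06). All 10 were called lower when somatic-scaled too. *clec-247*, *grl-27* and *grd-11* were the members of this set also called lower with extract in N2.

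**Figure D5:**
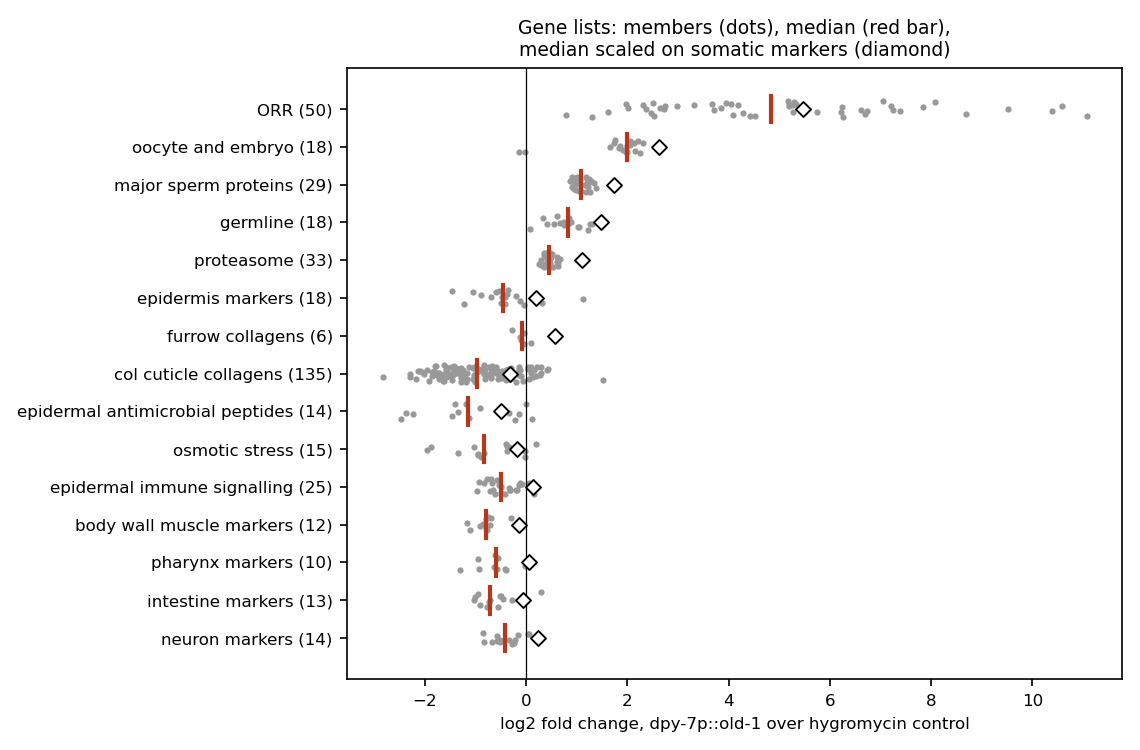
Log2 fold change, dpy-7p::old-1 over hygromycin control, of the tested members of gene lists (dots), with the list median (red bar) and the somatic-scaled median (diamond). The ORR genes lie to the right of 0 on both scales, with a median of 4.85, and the antimicrobial peptides to the left on both, at -1.15 and -0.50.

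Other lists differed by less. All 33 proteasome genes had values above 0, and 23 were called higher, their median being 0.45 on the log2 scale, where somatic-scaled all 33 were called. Of 80 cytosolic ribosomal protein genes 3 rose and 2 fell, and their median was 0.04, while somatic-scaled 78 rose and 0 fell with a median of 0.69. On the usual scaling, 35 of them changed more in *dpy-7p::old-1* than in *old-1p::old-1*. *vab-3*, a homolog of the eye gene Pax6 that the study names, had 9.90, 8.54 and 10.9 CPM in *dpy-7p::old-1* and 13.3, 7.57 and 10.6 CPM in control libraries and was not called (log2 fold change -0.11, SE 0.20, adjusted p = 0.681; somatic-scaled 0.53). *tax-2* and *tax-4*, subunits of the cGMP-gated channel of chemosensory neurons, were at or below 1 CPM in every library and not called, with log2 fold changes of -0.96 (SE 0.41, adjusted p = 0.0713) and -0.65 (SE 0.45, adjusted p = 0.243).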

How the data were processed

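RNA of whole animals was sequenced. The authors aligned reads to the WormBase WS283 transcriptome with kallisto and tested with sleuth (Wald test), and the deposited values are kallisto's estimated counts per transcript, unnormalized. Versions are not given in the sources used here. The 37058 transcripts were joined to 19988 genes through the Ensembl 115 annotation (WBcel235), and estimated counts were summed per gene and rounded. The lowest and highest library totals were 22693415 and 26993477 counts for *dpy-7p::old-1*, and 22906804 and 25717774 for the controls. Gene levels are CPM over library totals of the genes kept by the filter, each multiplied by its TMM factor. These factors ran from 0.877 (control replicate 2) to 1.079 (*dpy-7p::old-1* replicate 2). TPM was computed from counts and effective lengths. Sequences were not used here.

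edgeR 4.0.16 (R 4.3.3) was run on the 6 libraries with filterByExpr (min.count 5, min.total.count 15), TMM factors and glmQLFTest, 4 residual degrees of freedom, and adjusted p over all genes tested. Differences between experiments were contrasts in fits of 12 libraries. The test was checked on simulated counts in which few genes changed, as many up as down. That check does not cover a difference as broad as the one between these strains. DESeq2 1.42.0, limma 3.58.1 on log2(TPM + 1), other filters, thresholds and size factors, a replicate block and leaving out each library were alternatives. Size factors from somatic markers were added after the data were seen. Same-numbered replicates did not deviate together, and no 2 libraries were within sampling noise of each other.

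The genes named were those the study names, the ORR genes, the 10 largest rises and falls outside them with no overlap between groups and at least 1 CPM in the higher group, up to 4 called members of each list by adjusted p, and genes within the *chil* groups. Members and lists were chosen with earlier results of these data known, and genes outside the rule (*cul-6*, *skr-3*, *skr-4*, *skr-5*, *rcs-1*, *pals-18*, *pals-19*, *pals-22*, *pals-24*, *pals-25*, *ilys-3*, *lact-6*, *dod-3*, *M02E1.4*, *ces-2*, *col-19*, several antimicrobial peptides and those of the observations below) were named after their values were seen.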

Additional observations from a re-analysis of the deposited data

Results flagged for a closer look

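The change in *dpy-7p::old-1* differed from that of another experiment, by a test of the difference itself, in 10 instances. Of the ORR genes, 11 changed more in *dpy-7p::old-1* than in *old-1p::old-1* and 26 changed less than with extract in N2. Of the genes of the intracellular pathogen response that are not *pals* genes, 8 changed less than with extract. Of the antimicrobial peptide genes, 5 had a more negative change than in *old-1p::old-1* and 8 a more negative change than with extract. Of the osmotic stress genes, 3 had a more negative change than in *old-1p::old-1* and 10 than with extract. Of the cytosolic ribosomal protein genes, 35 had a larger change than in *old-1p::old-1*, 2 a larger and 2 a smaller change than with extract. The share of all genes called was 6.04% in the test against *old-1p::old-1* and 40.8% in the test against extract. With 3 libraries per group, no test for single outlying libraries was made.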

How the results depend on the processing

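The count of genes called in *dpy-7p::old-1* against control was 7396, and it lay between 6324 and 7647 under DESeq2, RLE size factors, no filter, the replicate block, a mean of at least 1 CPM, limma, adjusted p under 0.05, all 30 libraries in one fit and somatic scaling. With a log2 fold change of at least 1 it was 2399. Leaving out each library gave 5714 to 7036. limma on log2(TPM + 1) called 4112 higher and 2243 lower, against 4019 and 3377 in edgeR, and somatic scaling 7257 and 372. Of the ORR genes, 50 of 50 were called under these settings except 48 of 48 tested with a mean of at least 1 CPM and 49 with a log2 fold change of at least 1, and 49 to 50 with a library left out.

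The count of genes that changed differently than in *old-1p::old-1* was 1021, with 1734 under DESeq2, 469 at adjusted p under 0.05, 676 with a log2 difference of at least 1 and 2867 with all 30 libraries in one fit. It ran from 307 without *dpy-7p::old-1* replicate 1 to 2054 without *old-1p::old-1* replicate A. RLE size factors gave 240 higher and 718 lower, against 480 and 541 with TMM, and moved the median of all genes to -0.03, against 0.12. The ORR count in this test was 11, with 17 under DESeq2 and 25 under limma. The count that changed differently than with extract was 6852, with 3903 at a log2 difference of at least 1 and 5671 to 8185 with a library left out. The ORR count there was 26 lower, and limma gave 35 lower and 3 higher.

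The labels number the replicates in each group, but same-numbered libraries of *dpy-7p::old-1* and control had correlations of -0.15, -0.12 and -0.20 in their deviations, so the numbers were not taken as pairs. Some differently numbered libraries had positive values. They were 0.23, 0.25 and 0.20 for *dpy-7p::old-1* replicates 1, 2 and 3 with control replicates 2, 3 and 1. Whether such libraries were handled together was not tested. With the replicate block, 6324 genes were called against control, 50 of 50 ORR genes, 91 genes against *old-1p::old-1* (2 ORR genes) and 5158 against extract (26 ORR genes). The causes of these differences were not tested.

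Of 243 named or listed genes with a value, somatic scaling ended 52 calls and turned the sign of 13, of which 7 had not been called. The 6 called falls among them turned to 0.0171 for *his-37*, 0.0645 for *myo-1*, 0.0495 for *rpl-25.1*, 0.0892 for *tni-4*, 0.036 for *tnt-4* and 0.0635 for *unc-31*, none of them called. Muscle, pharynx, intestine and neuron markers set that scale, so values near 0 for such markers among these genes follow from the scaling itself. Leaving out a library ended 4 to 9 calls. Genes near 0 counts in controls have folds limited by depth.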

Other observations

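Of the 15 genes called higher in *old-1p::old-1* animals, 7 rose in *dpy-7p::old-1*, 7 fell and 1, the caenacin gene *cnc-2*, was not called. The 7 that rose were *old-1*, *Y71H2AR.2*, *ifas-1*, *F56A6.5*, *ddn-1*, *chil-1* and *vsra-1*. Those that fell were *acdh-2*, an acyl-CoA dehydrogenase gene, *dhs-14*, a dehydrogenase gene, *thn-2* (not called when somatic-scaled), *C09B8.4*, *F15E6.3*, *T28F4.5* and *C17C3.1*. *acdh-2* changed by -1.14 in *dpy-7p::old-1* (somatic-scaled -0.49, not called) and 3.90 in *old-1p::old-1*, and *C09B8.4* by -1.99 and 3.38.

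Of 12 genes of epidermal and anterior transcription factors 3 rose and 3 fell (25% each), near the 24.9% and 20.9% of all genes. Somatic-scaled, 4 rose and 0 fell, where 45% and 2.3% of all genes did so. *lin-26*, *nhr-23*, which drives molting, and *egl-27* rose by 1.13, 0.86 and 0.51 on the log2 scale, while *blmp-1*, *lin-29*, which acts at the larva to adult switch, and *elt-3* fell by 0.86, 0.52 and 0.41. These 3 falls were not called when somatic-scaled, at -0.21, 0.12 and 0.24. Of 28 other molting genes, 0 rose with *nhr-23* and 11 fell, and somatic-scaled 5 rose and 3 fell. Of 13 chitin genes tested 7 rose and 1 fell, and the risers included *cpg-1*, a gene of the eggshell, with 640, 595 and 519 CPM in *dpy-7p::old-1* and 124, 152 and 126 CPM in control libraries. Of 19 argonaute genes 12 rose and 2 fell (somatic-scaled 17 and 0). Of 62 genes with MATH or BATH domains 23 rose and 8 fell (median 0.52, somatic-scaled 34 and 0). Of 162 C-type lectin genes 14 rose (8.6%) and 31 fell (19.1%), where 24.9% and 20.9% of all genes did so. The share of lectin genes that fell was thus near that of all genes. The median of the lectin genes was -0.37 and turned to 0.28 when somatic-scaled, below the medians of all genes, -0.09 and 0.56.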
